A study of Homo sapiens with 30 samples.

Results

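The 2 control groups described here are the Vector libraries of an ANKRD10 overexpression experiment and the siNC libraries of an ANKRD10 knockdown experiment, both in 5637 cells. They comprise 6 of the 30 samples of the series, 3 in each group, and were set side by side by joining the columns of the 2 count tables on the gene name that both tables share. 5637 is an established human bladder carcinoma line. The question of the study was how the RNA-binding protein RBPMS and splice forms of ANKRD10, an ankyrin repeat protein, act on the genes that MYC controls. Vector cells carried the empty expression plasmid and siNC cells a negative control siRNA. No other agent, allele or time point separates the 2 groups in the labels, and all cells were grown in the same medium with fetal bovine serum. The treated arms of the same experiments were ANKRD10-1 and ANKRD10-2 (plasmids for the 2 splice forms) and siANKRD10-1 and siANKRD10-2 (siRNAs against them), with 3 libraries each. The study's text places ANKRD10-1 overexpression and the knockdown of ANKRD10-2 in RBPMS knockout cells, whereas the labels name only the parental line, so the RBPMS background of each control group is not settled here. The labels give neither dates nor separate cultures for the replicates, so p-values measure the spread between these libraries, which may be technical.

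Because each control group stands in its own experiment, plasmid against siRNA and one experiment against the other cannot be told apart. The treated arms, which share no library with the controls, were therefore compared across the same 2 experiments, and the difference between the control difference and the treated-arm difference was tested gene by gene. A difference carried by control and treated libraries alike separates the experiments as a whole. A difference carried by the control libraries alone separates Vector from siNC beyond that. The treated arms were made to raise or lower ANKRD10, so a called difference between the comparisons can also lie in the treated libraries. The test alone does not say which libraries carry it.

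Transfected nucleic acid is a known trigger of innate immunity: cytosolic DNA and double-stranded RNA are read by sensors that induce interferon, and interferon signals through a factor that holds STAT2 and IRF9 to switch on antiviral genes. Oxygen supply acts on transcription through the HIF factors, which induce glucose transport, glycolysis and angiogenic genes. MYC, a transcription factor that binds DNA with its partner MAX, drives ribosome assembly, nucleotide synthesis and growth. Urothelial tumor cells of basal type are recognised by keratins such as KRT5 and by squamous genes.

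The Vector libraries held 34768436 to 47116480 counts and the siNC libraries 32329422 to 32784584. On the log2 scale of depth-scaled counts, Pearson's r was 0.9904 to 0.9911 within Vector, 0.988 to 0.9889 within siNC and 0.9275 to 0.9345 between them. All 81 pairs of libraries from different tables lay between 0.9243 and 0.9392, and the 54 pairs of different groups within 1 table between 0.98 and 0.9904, so each control library was closer to the treated libraries of its own experiment than to the other control. Mitochondrial transcripts took 8.47 to 8.66% of the counts in Vector and 12 to 13.8% in siNC, and processed pseudogenes 0.16% and 0.29 to 0.31%. The tumor cell label was checked against fixed marker lists. KRT19 stood at 32954 to 40054 normalized counts in the 6 libraries and 32 of 33 epithelial markers passed the filter on low counts, as did 2 of 10 leukocyte, 4 of 8 endothelial, 9 of 10 fibroblast and 5 of 9 HEK293-type embryonic and neural markers. The summed count of the last list was 4262 to 4493 in Vector and 2959 to 3048 in siNC. Its 5 tested genes split into 3 higher, 1 lower and 1 not called. Among them NEFM, a neurofilament, had 1748, 2061 and 1717 counts in Vector against 236, 295 and 269 in siNC, although 38.9% of its length overlaps another gene. The part of these markers in the differences between the groups was not tested.

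Of 19773 genes tested, 14364 differed between Vector and siNC (72.6%; edgeR quasi-likelihood test, Benjamini-Hochberg adjusted p under 0.05). Vector was higher at 7247 genes (36.7%) and lower at 7117 (36%). With a log2 fold change of at least 1 added to the rule, 3276 genes were higher (16.6%) and 2441 lower (12.3%). The libraries of the 2 groups did not overlap at 14906 of the 19773 genes, so a lack of overlap is common here. The share called at any size is so large that a single call says little, and the account below follows whole programs and their medians, beside the median of all genes tested (0.02 on the log2 scale). In the treated arms, where the ANKRD10 libraries were compared with the siANKRD10 libraries, 8291 of 20514 genes were higher (40.4%) and 7999 lower (39%), and 3294 (16.1%) and 2609 (12.7%) with the fold rule. Of the genes tested in both, 2484 were at least 1 log2 unit higher in both comparisons, which is 76.8% of the control rises and 81.9% of the treated-arm rises. A further 1812 were lower in both, which is 75% of the control falls and 77.5% of the treated-arm falls, and 1 gene was called in opposite directions. The difference between the 2 comparisons passed the test at 4292 of 21119 genes (20.3%), with the control difference higher at 1844 (8.73%) and lower at 2448 (11.6%), and was at least 1 log2 unit at 383 (1.81%). These counts depended on the treated pair: with ANKRD10-1 and siANKRD10-1 alone 607 genes were higher and 786 lower, and with the ANKRD10-2 pair alone 3201 were higher and 3652 lower.

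**Figure D1:**
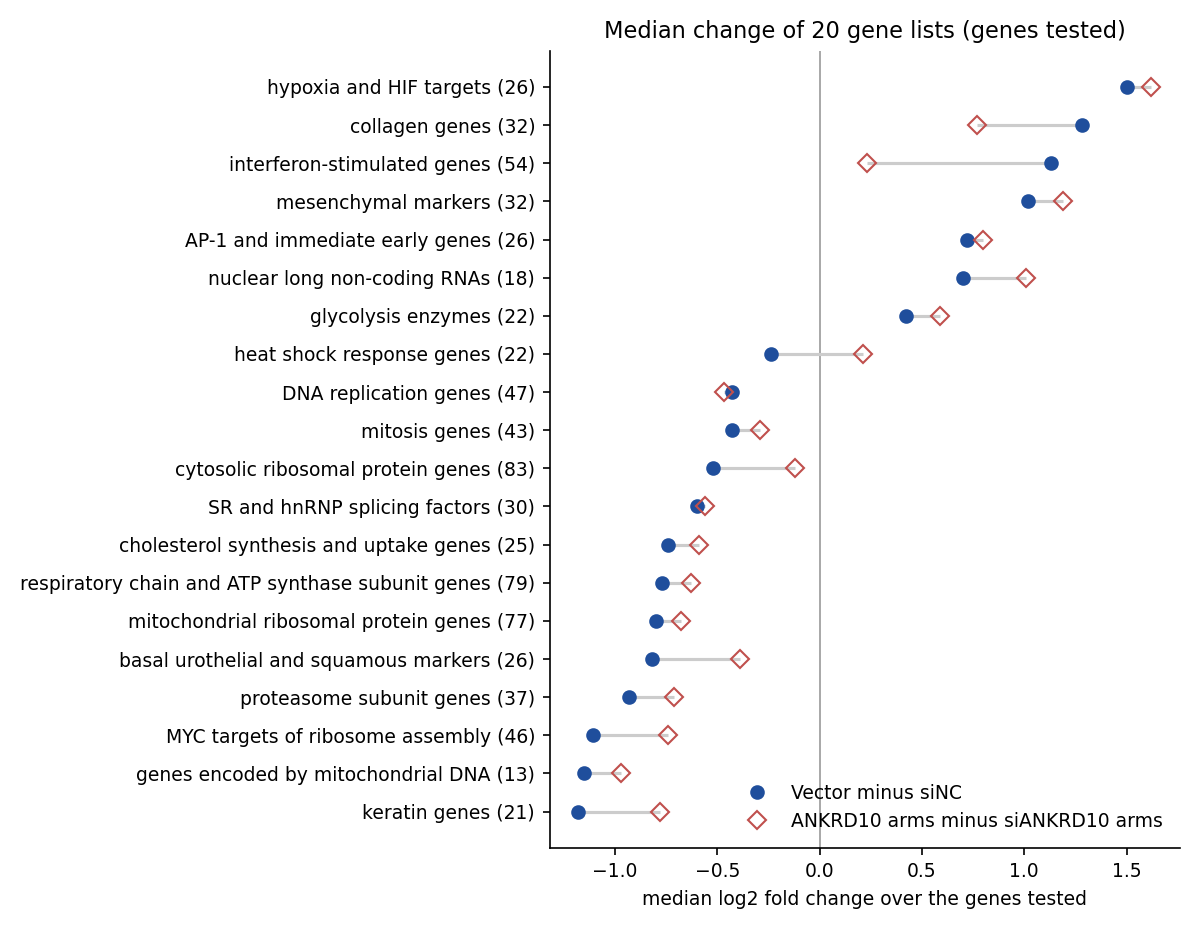
Median log2 fold change over the tested genes of 20 gene lists (number of genes in parentheses), for Vector minus siNC (filled circles) and for the ANKRD10 arms minus the siANKRD10 arms (open diamonds). Hypoxia genes were high and ribosome assembly, proteasome and mitochondrial DNA genes low in both comparisons, while the interferon list stood at 1.13 in the controls and 0.23 in the treated arms.

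Interferon-stimulated genes were higher in Vector than in siNC, and most of this difference was carried by the control libraries alone. Of 55 listed genes 54 were tested. Of these, 43 were higher in Vector, 5 were lower and 6 were not called, with a median log2 fold change of 1.13. IFI44L, a cytoplasmic interferon-induced protein, had 4298, 4610 and 4351 normalized counts in the Vector libraries and 4.7, 14.4 and 9.7 in the siNC libraries. The groups did not overlap, and the difference was 456-fold (log2 8.83 ± 0.13 SE, adjusted p = 2.74e-15). BST2, the membrane protein tetherin that holds budding virus at the cell surface, had 1878, 1711 and 1814 counts in Vector and 51.9, 57.5 and 53.3 in siNC. This is a rise of 5.05 ± 0.09 on the log2 scale. IFI44 rose by 4.51 ± 0.08, from 111 to 131 counts in siNC to 2575 to 2766 in Vector. OAS2, an enzyme that makes the activator of RNase L on double-stranded RNA, had 190 to 232 counts in Vector and 0.0, 2.4 and 0.0 in siNC, so its fitted change rests on very few siNC reads.

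IRF9, a transcription factor of the pathway, rose with its targets, from 635 to 651 counts in siNC to 3620 to 3867 in Vector. This is a difference of 2.55 ± 0.06. STAT2, its partner, rose by 0.87 ± 0.07, and MX2, a GTPase that restricts viruses, by 2.95 ± 0.13. GBP2, an interferon-induced GTPase and one of the most abundant members, rose by 1.04 ± 0.06, from 5901 to 6567 counts in siNC to 11951 to 13801 in Vector. The cytosolic RNA sensors IFIH1 (MDA5) and RIGI (RIG-I) rose by 2.43 ± 0.06 and 1.73 ± 0.06, but of the 21 tested genes of the sensor and adaptor list 9 were higher and 8 lower, and its median was -0.01. Not every interferon target followed. CXCL10, a chemokine induced by interferon, fell by 1.03 ± 0.36 at 12.1 ± 1.18 counts in Vector against 24.8 ± 5.21 in siNC (SD, n = 3), and IFITM3, which blocks virus entry, fell by 0.56 ± 0.08.

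The letters around one short motif are given for the interferon genes that led the list and have a match, because the promoters of such genes are known to be bound by STAT2 and IRF9 at the interferon-stimulated response element. The core searched was GAAA, any 2 bases and GAAA again, on both strands, in RefSeq promoter windows (GRCh38.p14) of 250 bases before to 50 bases after each gene's start, and its match is in capitals in the 30 bases shown, 5′ to 3′ on the gene's strand.
IFI44L (chr1:78620365-78620394, plus strand): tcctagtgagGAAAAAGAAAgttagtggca
BST2 (chr19:17405735-17405764, minus strand): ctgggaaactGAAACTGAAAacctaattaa
IFI6 (chr1:27672266-27672295, minus strand): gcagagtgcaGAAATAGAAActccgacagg
IFI44 (chr1:78649761-78649790, plus strand): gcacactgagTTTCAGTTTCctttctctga
The IFI44 match lies on the opposite strand. Of the 54 tested members 42 had a promoter window, and 26 of these held the core (61.9%), against 996 of all 27305 windows (3.65%). A match describes the letters of the window and is not a bound site.

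The treated arms showed how far this program belonged to Vector itself. In them 29 listed genes were higher in the ANKRD10 arms and 17 lower, and the list median was 0.23. The test of the difference between both comparisons was passed by 46 members, 44 of them with the larger difference in the controls, and its median was 1.26. Among all genes 20.3% passed this test. For IFI44L the difference was 4.92 (adjusted p = 4.69e-09). Scaled over all 18 libraries, IFI44L stood at 4165 to 4462 normalized counts in Vector, 163 to 188 in ANKRD10-1, 63.6 to 109 in ANKRD10-2 and 4.5 to 15.2 in the 9 libraries of the siRNA experiment. The Vector libraries were thus above all others, and both ANKRD10 groups lay above the siRNA libraries. BST2 read 1656 to 1819 in Vector, 124 to 152 in ANKRD10-1 and 37 to 63.9 in ANKRD10-2, and 33.2 to 61.3 in the siRNA experiment, where ANKRD10-2 overlapped it. As the median over the list, the log2 level above the siNC mean was 1.15 to 1.19 in the Vector libraries, -0.26 to -0.02 in the ANKRD10 libraries and -0.22 to -0.10 in the siANKRD10 libraries.

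**Figure D2:**
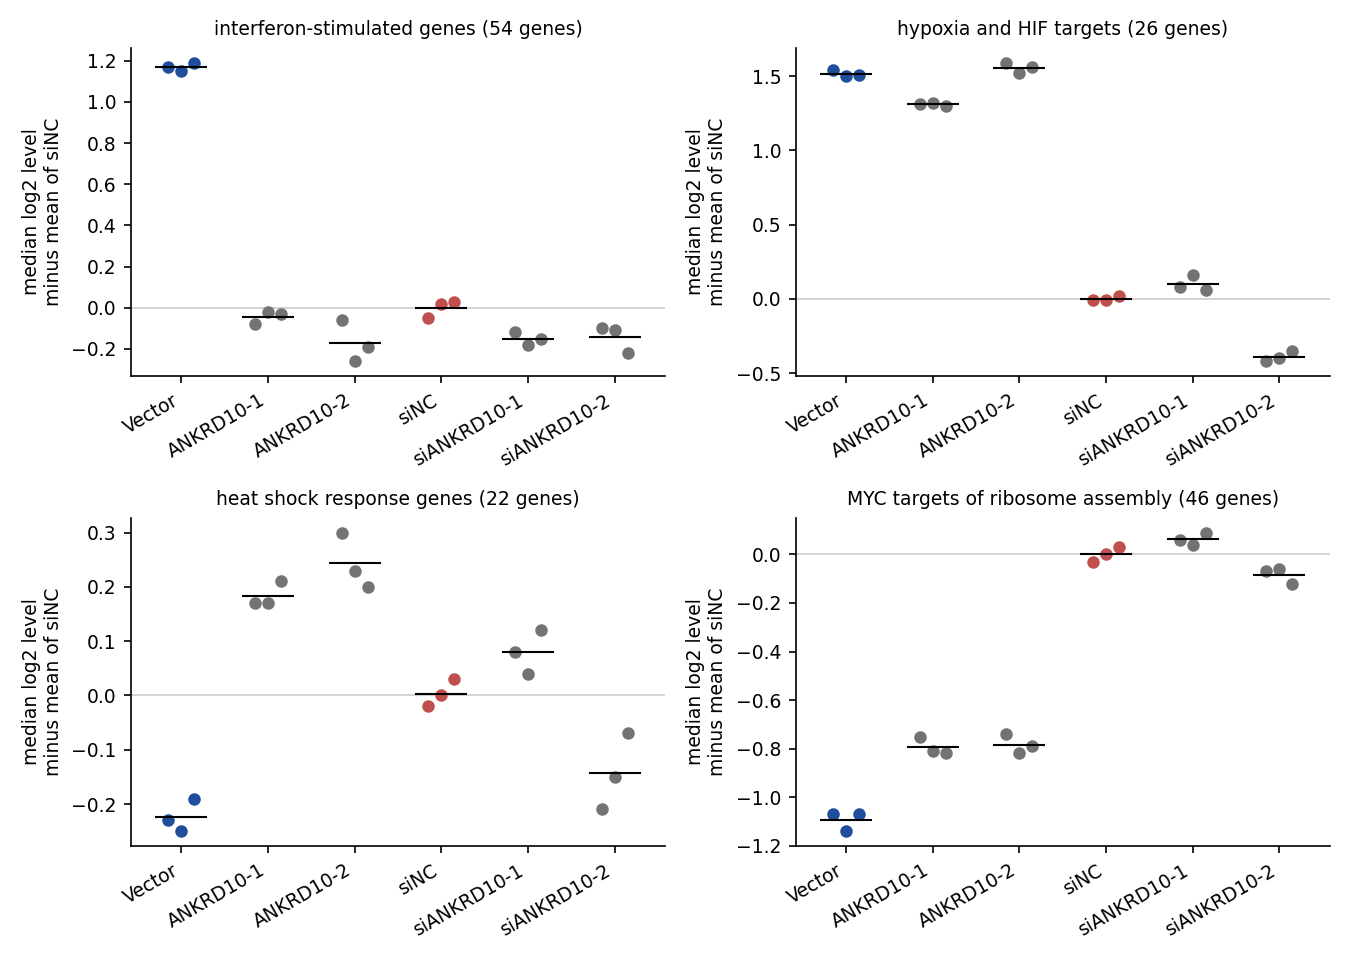
Median log2 level of 4 gene lists in each of the 18 libraries, minus the mean of the siNC libraries, with the group mean as a bar (blue, Vector; red, siNC; grey, treated arms). The interferon list was high in the Vector libraries alone (1.15 to 1.19), the hypoxia list in all 9 libraries of the overexpression experiment (1.30 to 1.59), and the ribosome assembly list low in the same 9 (-1.14 to -0.74).

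The MHC class I genes present peptides to T cells and are also induced by interferon. Of 17 members 10 were higher in Vector (58.8%) and 5 lower (29.4%), against 36.7% and 36% of all genes. HLA-E, which also signals to natural killer cells, had 7385, 7204 and 7552 counts in Vector and 2416, 2445 and 2501 in siNC, a rise of 1.59 ± 0.05. The median of the list was 0.43 in the controls and 0.15 in the treated arms. Of the 17 members 6 had a called difference between the comparisons, 5 of them larger in the controls, against 20.3% of all genes. The list level stood 0.40 to 0.48 above the siNC mean in Vector and 0.03 to 0.19 above it in the ANKRD10 libraries. In the treated arms HLA-E rose by 1.57, and the difference between the comparisons was 0.03 (adjusted p = 0.808, edgeR).

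Hypoxia and HIF target genes rose as a whole list. All 26 listed genes passed the test in the upward direction, 20 of them with at least 1 log2 unit, and the median was 1.5. NDRG1, a stress-induced growth regulator, had 93879, 92932 and 93306 counts in Vector and 5629, 5876 and 6075 in siNC. This is a 15.9-fold difference (log2 3.99 ± 0.05, adjusted p = 1.94e-15). CA9, a carbonic anhydrase that controls pH outside hypoxic cells, had 284, 277 and 266 counts against 8.3, 7.2 and 19.4. ANGPTL4, a secreted inhibitor of lipoprotein lipase, had 302, 266 and 327 against 8.3, 16.8 and 4.8. In each of these genes the groups were far apart. HILPDA and PLIN2, which coat lipid droplets, rose by 3.85 ± 0.08 and 3.22 ± 0.06, and EGLN3, an oxygen sensing hydroxylase that is itself a HIF target, by 3.27 ± 0.08. VEGFA, the main angiogenic growth factor, rose by 1.56 ± 0.05, from 4575 ± 22.8 counts in siNC to 13520 ± 91.7 in Vector (SD, n = 3). The smallest rises were those of EGLN1 at 0.22 and of the glucose transporter SLC2A1 at 0.19.

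The HIF motif core was read in the same way, as ACGTG or GCGTG on both strands, which includes the MYC motif CACGTG. Of 21 members with a window 17 held it (81%), against 48.4% of all windows. Members with the core had a median log2 fold change of 1.43, and those with a window but no core 1.48. The windows of the 2 hypoxia genes with the largest rises are shown, with the match in capitals.
ANGPTL4 (chr19:8363908-8363937, plus strand): gggaaagaagagtCACGTctcccacggttc
CA9 (chr9:35673897-35673926, plus strand): ctcgtttccaatgCACGTacagcccgtaca

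Glycolysis enzymes and glucose transport rose with them at 15 of 22 genes, with 3 lower and a median of 0.42. SLC2A3, a high-affinity glucose transporter, had 1106, 1001 and 949 counts in Vector and 9.4, 16.8 and 19.4 in siNC (log2 6.06 ± 0.16). The neuronal enolase ENO2 rose by 2.95 ± 0.06 and hexokinase HK2 by 1.94 ± 0.05. ENO1 rose by 0.76 ± 0.05 whereas PKM, the last enzyme of the pathway, fell by 0.59 ± 0.05. The hypoxia and glycolysis genes were also higher in the treated arms, though not to the same size at each gene. The difference between the comparisons was called at 17 of the 26 hypoxia genes, with 4 higher and 13 lower in the controls, and at 13 of the 22 glycolysis genes, with 3 higher and 10 lower, against 20.3% of all genes. All 26 hypoxia genes were higher in the ANKRD10 arms, with a median of 1.62, and NDRG1 stood at 74478 to 96649 counts in those 6 libraries against 2972 to 7589 in the 6 siANKRD10 libraries. SLC2A3 differed by 5.99 there, and the difference between both comparisons was 0.08 (adjusted p = 0.904).

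Matrix genes were also higher in Vector. Of 32 tested collagen genes 28 rose and 1 fell, with a median of 1.28. Across the treated arms 20 were higher and 5 lower, with a median of 0.77. Some rises began near the floor of detection: COL1A2, a chain of fibrillar collagen I, had 187, 151 and 217 counts in Vector and 17.7, 24.0 and 12.1 in siNC, a rise of 3.37 ± 0.24. COL7A1, the anchoring fibril collagen of basement membranes, rose by 0.86 ± 0.05 at 50600 to 51861 counts against 26214 to 29336. COL12A1 was the member that fell, by 0.80 ± 0.07. The mesenchymal list had a median of 1.02, with 23 of 32 genes higher and 4 lower, and a median of 1.19 in the treated arms. Its intermediate filament VIM rose by 1.22 ± 0.08, while FN1, the most abundant member, had 84588 to 88965 counts in Vector and 77670 to 88280 in siNC and was not called (0.07 ± 0.06, adjusted p = 0.263, edgeR) and stood at -0.26 with the length trend removed. POSTN, a matrix protein of fibroblasts, fell by 4.21 ± 0.61 from 34.4 counts. LAMB3, a chain of the epithelial laminin, rose by 1.28 ± 0.05. Fibroblast markers rose at 6 of 9 tested members, PDGFRA among them at 36.8 against 3.21 counts. The summed count of the list was 2495 to 2578 in Vector and 1707 to 1781 in siNC, and most of it was COL1A1 and THY1. Whether rare cells of another type or these tumor cells carry such low counts was not tested, and in bulk RNA a change in the number of cells cannot be told apart from a change in RNA per cell.

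Immediate early genes, the first to respond to serum and stress, were higher at 19 of 26 and lower at 3, with a median of 0.72. Their median in the treated arms was 0.8. JUNB had 3257, 3087 and 3303 counts in Vector and 983, 889 and 913 in siNC, and FOS, FOSB and JUN rose by 1.64, 1.66 and 1.32. JUND went the other way and fell by 1.32. Nuclear long non-coding RNAs rose at 14 of 18, with a median of 0.7 in the controls and 1.01 in the treated arms. MALAT1, a nuclear speckle RNA, had 92223, 92353 and 88529 counts against 25239, 23649 and 21918, and NORAD, which binds Pumilio proteins, rose by 1.64 ± 0.05.

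Genes of ribosome assembly fell together. In the list of MYC targets of this kind 45 of 46 genes were lower in Vector, 25 of them by at least 1 log2 unit, and RCL1 was not called. The median was -1.11. RRS1, needed to assemble the large ribosomal subunit, had 731, 675 and 707 counts in Vector and 3290, 3538 and 3654 in siNC, a fall of 2.31 ± 0.06 (adjusted p = 3.85e-13). The spermidine synthase SRM fell by 1.96 ± 0.11 and POLR1A, the largest subunit of RNA polymerase I, by 1.71 ± 0.10. Nucleolin (NCL), the most abundant member, had 73513, 83065 and 84629 counts against 179876, 183393 and 184091, and NPM1 fell by 0.46 ± 0.06. The list fell in the treated arms too, with 44 genes lower and a median of -0.74. However, 31 of the 46 members passed the test of the difference, against 20.3% of all genes, all with the larger fall in the controls. The E-box CACGTG, to which MYC and MAX bind, was found on 13 of 38 promoter windows of the list (34.2%) and in 7.43% of all windows. The list was drawn up as MYC targets, so this share is not a separate result. Members with the E-box had a median of -1.23 and those with a window but no E-box -0.97. The proteasome list, which also fell, held the E-box in 2 of 32 windows (6.25%).

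MYC itself did not follow this list. It had 1907, 1802 and 1884 counts in Vector and 1810, 1741 and 1865 in siNC, a difference of 0.05 ± 0.05 that was not called (adjusted p = 0.45, edgeR). MAX was lower in Vector by 0.58 ± 0.06, at 1965, 2138 and 1890 against 2815, 2928 and 3211. Of the 13 tested genes of the MYC, MAX and MXD network 7 were higher and 4 lower. MXD1 and MXI1, which compete with MYC for MAX, rose by 1.76 ± 0.06 and 1.01 ± 0.07, while MXD3 of the same family fell by 0.82 ± 0.07, at 40.4% overlap with another gene. RBPMS had 192, 198 and 173 counts in Vector and 228, 179 and 174 in siNC, and the groups overlapped (adjusted p = 0.757). ANKRD10, the target of both experiments, was higher in Vector by 1.32 ± 0.05, with 5469, 5426 and 5435 counts against 2208, 2079 and 2254. As it is the gene that each experiment manipulates, its level in the treated arms checks the direction of each manipulation. Counts per gene do not separate the 2 splice forms, so the label of the form was not checked. ANKRD10 was at 6569 to 8602 counts in the ANKRD10 libraries, above Vector at 5241 to 5299. It was at 1716 to 1871 in the siANKRD10 libraries, below siNC at 2000 to 2178.

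Other genes of protein and energy production fell with ribosome assembly. Of 37 tested proteasome subunit genes 35 were lower and none higher, with a median of -0.93, and of -0.71 in the treated arms. PSMC4, an ATPase of the proteasome cap, had 666, 716 and 685 counts in Vector and 2535, 2631 and 2707 in siNC, and the core subunit PSMA4 fell by 0.91 ± 0.08. Mitochondrial ribosomal protein genes were lower at 60 of 77 (median -0.80) and nuclear genes of the respiratory chain at 62 of 79 (median -0.77). Their treated-arm medians were -0.68 and -0.63. NDUFA12, a subunit of complex I, fell by 2.34 ± 0.07. Cytosolic ribosomal protein genes were lower at 62 of 83, with a median of -0.52, and in the treated arms their median was -0.12. The difference between the comparisons was called at 68 of them, lower in the controls at 67, against a call at 20.3% of all genes. All 8 genes of the chaperonin CCT, which folds actin and tubulin, were lower, CCT2 by 1.28 ± 0.06.

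Of the 13 protein genes of mitochondrial DNA 11 were lower in Vector and 1 was higher, with a median of -1.15. MT-ND6 had 20546, 21101 and 21026 counts in Vector and 86737, 102502 and 121367 in siNC (log2 -2.31 ± 0.09). MT-CO1 was not called. The treated arms had a median of -0.97, but the 2 siRNA groups were not alike. Relative to siNC the list stood at -0.17 to 0.01 in siANKRD10-1 and at -0.62 to -0.56 in siANKRD10-2, against -1.21 to -1.05 in Vector.

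RNA processing genes were lower as well. SR and hnRNP splicing factors fell at 26 of 30 genes with none higher (median -0.60, and -0.56 in the treated arms). HNRNPM had 14926, 15829 and 15833 counts in Vector and 81668, 82861 and 82948 in siNC, a 5.31-fold difference, and SRSF3, a small SR protein, fell by 2.29 ± 0.05. The treated arms gave -2.66 for HNRNPM and -2.18 for SRSF3.

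Proliferation genes fell by less. DNA replication genes were lower at 35 of 47 and higher at 5, and mitosis genes lower at 35 of 43 and higher at 4, both with a median of -0.43. Both lists were also lower in the treated arms. There 35 DNA replication genes were lower and 9 higher (median -0.47), and 30 mitosis genes lower and 5 higher (median -0.29). CCNB1, the mitotic cyclin, had 1905, 1745 and 1861 counts in Vector and 5656, 5580 and 5945 in siNC, and UHRF1, which carries DNA methylation through replication, fell by 1.49 ± 0.05. TOP2A, which untangles DNA and is among the most abundant mitosis genes, fell by 0.18 ± 0.07, a call that was lost without Vector replicate 3, siNC replicate 1 or siNC replicate 2 and under another scaling. CCND1, the G1 cyclin, was 1965, 2057 and 2119 against 5069, 5175 and 5444, a fall of 1.35 ± 0.05. The treated arms gave 0.08, and the difference between the comparisons was -1.42 (adjusted p = 3.98e-15). Scaled over all 18 libraries, CCND1 stood at 4880 to 5262 counts in siNC and 1904 to 2043 in Vector. It was 1858 to 2308 in the ANKRD10 libraries and 1767 to 2398 in the siANKRD10 libraries. The siNC libraries were thus above all others, and Vector overlapped with the treated arms. Among 23 p53 targets, 9 rose (39.1%) and 10 fell (43.5%), near the 36.7% and 36% of all genes, with a median of 0.06. TP53I3 and BAX, both linked to cell death, fell by 3.35 ± 0.12 and 2.39 ± 0.10, while the highest change in the list was a rise of 1.34.

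Lipid synthesis genes were lower in Vector. Of 25 genes of cholesterol synthesis and uptake 18 fell and 2 rose, with a median of -0.74. Across the treated arms 18 were lower and 4 higher, with a median of -0.59. NSDHL, a late enzyme of the pathway, had 391, 444 and 364 counts in Vector and 1608, 1484 and 1691 in siNC, a fall of 2.00 ± 0.08. FASN, fatty acid synthase, had 2119, 2190 and 2118 counts against 8082, 7777 and 6877.

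Most markers of the basal urothelium and squamous epithelium were lower in Vector. Of 26 tested 18 were lower and 7 higher, with a median of -0.82. The treated arms had 14 lower and 9 higher, with a median of -0.39. COL17A1, a collagen of the hemidesmosome, rose by 1.18 and TP63, the transcription factor of basal cells, by 0.46. Of 21 tested keratin genes 18 fell and 2 rose, with a median of -1.18, and of -0.78 in the treated arms. KRT5, the basal keratin, had 7793, 7514 and 7871 counts in Vector and 33842, 35043 and 34684 in siNC, a 4.47-fold difference (log2 -2.16 ± 0.05, adjusted p = 8.87e-14). KRT8 fell by 1.56 ± 0.05 and KRT17 by 0.60 ± 0.05. The fall of KRT5 was smaller in the treated arms (-1.07, difference -1.08 with adjusted p = 1.22e-14), where siANKRD10-1 stood at 24943 to 25322 and siANKRD10-2 at 15850 to 16024 counts, both below siNC. On the same scale over 18 libraries, the ANKRD10 libraries stood at 8751 to 10844 counts, above Vector at 7273 to 7590. PI3, KLK10 and CASP14, given next, are members of neither the basal and squamous list nor the keratin list, whose lowest values were both -3.68. PI3, the protease inhibitor elafin of squamous epithelium, had 20.2, 16.4 and 16.6 counts in Vector and 979, 985 and 1185 in siNC, the largest fall of a named gene at 5.88 ± 0.14. The kallikrein KLK10 fell by 3.89 ± 0.16, SPRR2A of the cornified envelope by 3.68 ± 0.16 and the calcium-binding S100A8 by 2.69 ± 0.06. CASP14, a caspase of cornifying skin, went the other way, from 72.7 to 100.7 counts in siNC to 2718 to 2862 in Vector. The broader epithelial list was split, with 13 genes higher, 12 lower and a median of -0.06, and CDH1, E-cadherin, was not called (0.03).

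Heat shock genes moved apart from the rest. Of 22 genes 5 were higher in Vector and 12 lower, with a median of -0.24. The inducible HSP70 genes HSPA1A, HSPA1B and HSPA6 rose by 1.54 ± 0.05, 1.46 ± 0.05 and 1.22 ± 0.25, while the constitutive HSPA8 and the mitochondrial co-chaperonin HSPE1 fell by 1.29 ± 0.06 and 1.36 ± 0.05. HSPA1A and HSPA1B are near-identical copies, so the split of reads between them is uncertain. In the treated arms HSPA1A rose by 3.53 and HSPA6 by 5.15. The test of the difference was passed by 18 of the 22 genes, against 20.3% of all genes, all with the lower value in the controls. HSPA6 read 78.3 to 115 counts in Vector, 1156 to 1416 in the ANKRD10 libraries and 23.7 to 50.7 in the siRNA libraries, so that Vector lay between the others without overlap.

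**Figure D3:**
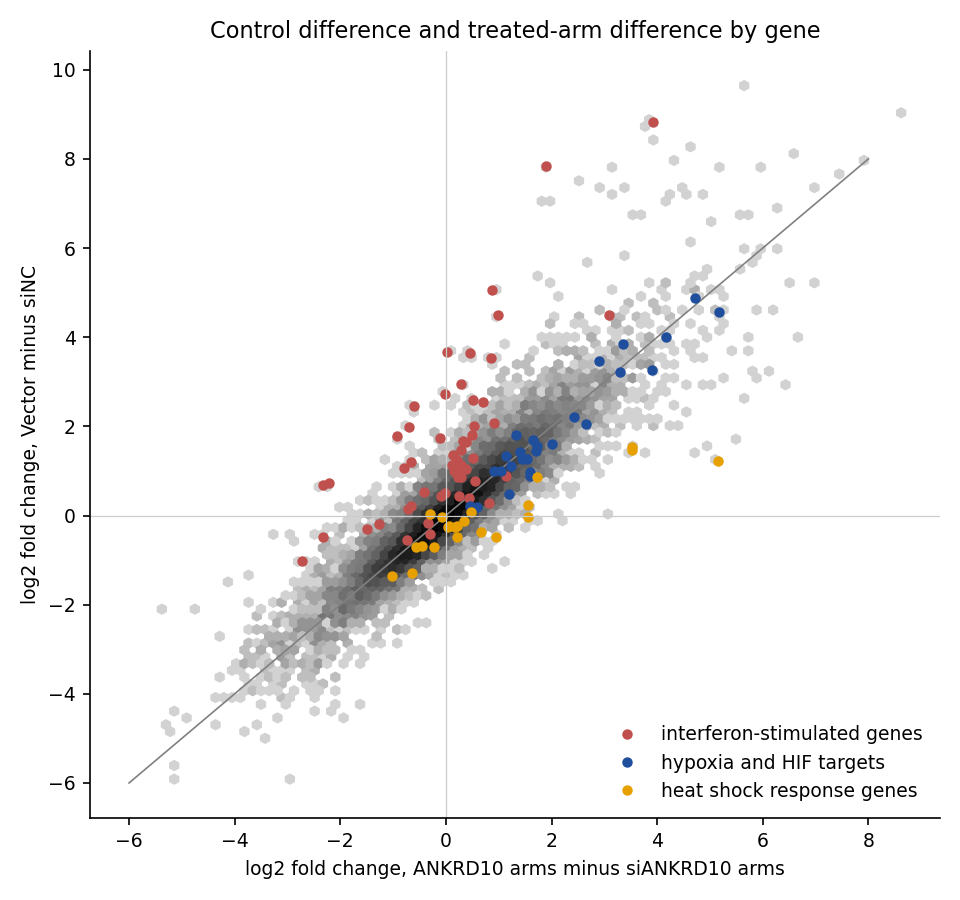
Log2 fold change of each gene in the control comparison (vertical axis) and in the treated-arm comparison (horizontal axis), with darker hexagons for more genes and the line of equal change. Across 19615 genes Pearson's r was 0.91, hypoxia genes were high on both axes with 17 of 26 departing from the line by the test, interferon genes lay mostly above it and 18 of 22 heat shock genes below it by the test.

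The correlation in this plot is across genes, which are not independent replicates, and the points share the 2 experiments. Of the genes called with the fold rule in the controls, 1149 also passed the test of the difference (20.3%).

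Among all genes with at least 50 counts on average, further large rises belonged to no list. SFRP1, a secreted inhibitor of WNT signalling, had 305, 293 and 267 counts in Vector and 4.7, 2.4 and 0.0 in siNC. FABP4, a fatty acid carrier, had 3917, 3635 and 3904 against 489, 495 and 522. Both groups stood clearly apart, and the differences in the treated arms were 6.31 and 2.17. CREBRF, a regulator of CREB3 turnover, rose by 3.11 ± 0.08. Among the falls, the proline synthesis enzyme PYCR3 dropped by 3.89 ± 0.19 and the alcohol dehydrogenase ADH1C by 3.60 ± 0.13. FST, follistatin, which binds activin, had 385, 332 and 288 counts in Vector and 1863, 2023 and 2203 in siNC. TMA7 fell by 2.82 ± 0.06, but 53.2% of its length overlaps another gene. The mitochondrial lysine tRNA MT-TK fell by 4.13 ± 0.07, and mRNA libraries are not made to capture tRNAs.

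Several library properties moved with the programs. The median change of nuclear protein-coding genes rose with the length of the gene model, from -0.29 in the shortest of 5 equal bins to 0.19 in the longest, and from -0.22 to 0.17 in the treated arms. With the length trend removed from each library, the medians were 1.17 for interferon, 1.42 for hypoxia and -1.07 for ribosome assembly genes. Processed pseudogenes, intronless copies that share sequence with their parent genes, had a median of -1.27 with 82 of 490 higher and 302 lower, and long intergenic RNAs one of 0.65. The part of the pseudogene and mitochondrial shares in the list medians was not tested. Clustered protocadherin genes, with a median of -1.26, share exons and reads (40.2% of the length of PCDHGC3 overlaps another gene), so their 22 falls are not separate measurements. The cancer-testis genes MAGEA6 and MAGEA3, which fell by 3.69 and 2.34, also share sequence with close copies.

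Neighbouring genes moved together on some chromosomes. The median of protein-coding genes was 0.37 on chromosome 9 (553 genes) and 0.27 on chromosome 13 (237 genes), and -0.23 on chromosome 21 and -0.21 on chromosome 20. The treated arms gave 0.37, 0.34, -0.25 and -0.18. On chromosome 9 the first 20 Mb stood at 0.92, with 36 of 45 genes higher, and the window from 60 to 80 Mb at 0.83, with 28 of 37 higher. The zinc finger genes with a ZNF symbol, a list taken by symbol and not by position, had a median of 0.28. Of 425 tested, 211 were higher (49.6%) and 100 lower (23.5%), against 36.7% and 36% of all genes.

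**Figure D4:**
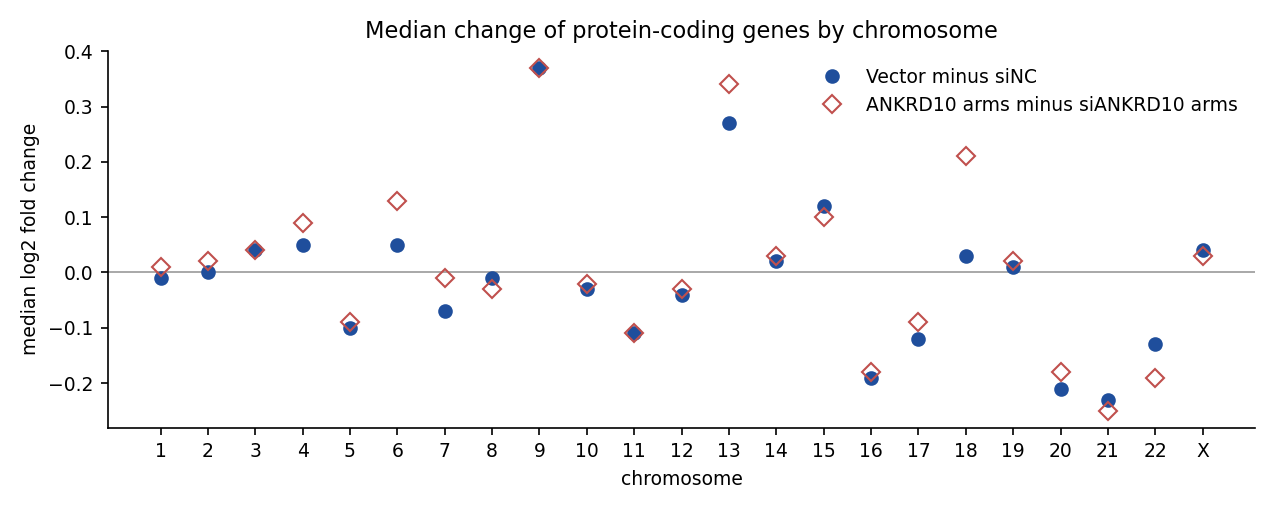
Median log2 fold change of protein-coding genes on each chromosome for Vector minus siNC (filled circles) and the ANKRD10 arms minus the siANKRD10 arms (open diamonds). Chromosomes 9 and 13 lay highest (0.37 and 0.27 in the controls) and chromosome 21 lowest (-0.23), with like values in the treated arms.

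Set beside the WT1 and WT2 control groups of the RBPMS knockout experiment, whose table was counted on another gene list so that no test was made, the 2 control groups lay on the same side of WT for some lists and on opposite sides for others. Hypoxia genes had a median log2 difference from WT of 1.92 in Vector and 0.16 in siNC, over all genes 0.01 and -0.02. Interferon genes stood at 1.79 and 0.43. Ribosome assembly genes stood at -0.4 in Vector and 0.81 in siNC, and proteasome genes at -0.52 and 0.47. Keratin genes stood at 0.46 and 1.35. Collagen genes were above WT in both (1.64 and 0.76) and cholesterol genes below it in both (-1.67 and -1.15). RBPMS read 6.29 CPM (counts scaled by library size) in Vector and 6.62 in siNC, 37.5 in WT1 and 39.8 in WT2, and 13.1 to 19.6 in the 6 knockout libraries. ANKRD10 read 182.5 in Vector, 74.6 in siNC, 180 in WT1 and 176 in WT2.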

How the data were processed

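RNA of 5637 cells was sequenced as stranded mRNA libraries, for which the labels and the study's methods name different kits. Per the submitters' processing notes, reads were trimmed with Trimmomatic 0.36 and counted with featureCounts (Subread 1.5.1) on GRCh38, and the authors deposited whole-number gene counts, not normalized, in 1 table per experiment. The study's methods name HISAT2 and StringTie instead, and which program made the deposited counts was not settled.

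The 6 columns were joined on the gene name, and genes with enough counts by filterByExpr (minimum count 10, total 15) were kept, 19773 of 56303. Counts were scaled by TMM and tested with edgeR 4.0.16 (R 4.3.3), quasi-likelihood with Benjamini-Hochberg adjustment, with limma 3.58.1 and DESeq2 1.42.0 as alternatives. Normalized counts are counts scaled to the mean library, and the level of a list is the median over its tested genes. The treated arms (12 libraries) and the difference between the comparisons (18 libraries) were fitted in the same way. The scripts were tested on simulated data with changes of 1.5 log2 units or more, and DESeq2 missed more changes than the other tools in a trial with smaller ones. With 3 libraries against 3, an exact permutation test of 1 gene cannot go below p = 0.1. Same-numbered replicates did not deviate together (correlations of -0.014, -0.003 and 0.018), so no pairing was used. Depth was 32329422 to 47116480 counts, and genes at a few counts are limited by counting error.

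The groups, gene lists and members were chosen with earlier results of these data known. Genes were named by rule: RBPMS, ANKRD10, MYC and MAX, the 10 largest rises and falls with a mean of at least 50 counts and no overlap, the same with at least 200 counts in the lower group, up to 4 members of largest change and 2 of highest count per list, and the 5 largest differences between the comparisons each way. CDH1, COL12A1, CXCL10, EGLN1, EGLN3, IFITM3, IRF9, JUND, MT-CO1, PDGFRA, POSTN, RCL1, SLC2A1, STAT2, VEGFA and VIM were named after their values were seen. Promoter windows are from RefSeq. Levels beside the knockout table are CPM with a pseudocount of 0.5. Alternatives were other scalings, filters and tools, a length correction, a replicate block, leaving out each library and fits with 1 treated pair. Some genes that the rule names are not reported here.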

Additional observations from a re-analysis of the deposited data

Results flagged for a closer look

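Groups of 3 libraries were not tested for a single deviating sample. What stood out was a control difference that departed from the treated-arm difference between the same 2 experiments, tested gene by gene over 18 libraries with edgeR, and the 5 largest departures in each direction are given. On the upper side all 5 genes were interferon-stimulated. The control difference exceeded the treated-arm difference by 5.97 on the log2 scale for OAS2, by 4.92 for IFI44L, by 4.17 for BST2, by 3.65 for IFI6 and by 3.53 for IFI44. The OAS2 value rests on siNC libraries with almost no reads.

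On the lower side 3 of the 5 genes encode inducible HSP70 proteins. The departure was -3.93 for HSPA6, -2.06 for HSPA1B and -1.98 for HSPA1A, whose reads cannot be fully separated from those of HSPA1B. The other two were the hair keratin KRT81 at -1.85 and FGFBP1, a secreted carrier of fibroblast growth factors, at -1.70. The departures of KRT81 and FGFBP1 were not called when ANKRD10-1 and siANKRD10-1 alone stood for the treated arms, while those of the other 8 genes were called with either pair. In the HSP70 genes the rise across experiments was larger in the treated arms than in the controls. What sets the Vector libraries apart from the ANKRD10 libraries of their own experiment was not tested.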

How the results depend on the processing

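The 4 main programs kept their direction under all alternatives in which their genes were tested. No mitochondrial DNA gene was tested when mitochondrial and abundant genes were left out. The interferon median (1.13) was 1.19 with upper-quartile scaling, 1.26 with no scaling, 1.25 with a stricter filter, 1.17 with the length trend removed and 1.10 to 1.19 when single libraries were left out. Hypoxia (1.5) gave 1.56, 1.63, 1.53, 1.42 and 1.49 to 1.52. With mitochondrial and abundant genes left out of both the scaling and the fit, it gave 1.44 over 25 of its 26 genes. Ribosome assembly (-1.11) gave -1.06, -0.98, -1.08, -1.07 and -1.14 to -1.08. Mitochondrial DNA genes (-1.15) gave -1.01 with no scaling and -1.25 to -1.03 without single libraries. The replicate block left 7123 higher and 7008 lower genes, 3247 and 2440 with the fold rule. A test against a change of 1 log2 unit left 2075 higher and 1496 lower. The difference between the comparisons depended on the treated pair used: with the ANKRD10-1 pair 607 genes were higher and 786 lower (106 and 50 by at least 1 log2 unit), with the ANKRD10-2 pair 3201 higher and 3652 lower (789 and 423). The cause was not tested. No scaling moved the median of all genes from 0.021 to 0.151. Values near 0 changed sign: epithelial markers 0.07 and HSP90AA1 0.01 with no scaling, RBPMS 0.01 (upper quartile), 0.08 (none) and -0.13 to 0.07 without single libraries; COX6C 0.00 with RLE or DESeq2 and -0.05 to 0.00 without single libraries. With the length trend removed, EGF receptor genes stood at -0.01 and FN1 at -0.26, and with a stricter filter histone genes at 0.12. With no filter chromosomes 1, 7, 8, 10, 11 and 12 stood at 0.10, 0.04, 0.07, 0.05, 0.01 and 0.04, and, over single libraries left out, chromosome 14 at -0.01 (without siNC replicate 1) to 0.03, while chromosome 18 stood at 0.00 without Vector replicate 2.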
